A study of Mus musculus with 10 samples.

Results

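The genes Eomes, Igfbpl1, Sstr2, Slc17a6, Mfap4, Btbd17, Gadd45g and Rgs16, all known from intermediate progenitors, were followed in the dentate gyrus of the mouse from 4 to 12 weeks of age. A gene was taken through the probe sets whose annotation names it alone, with the probe set of highest mean over the arrays to be used where there were several. Each of the 8 genes had 1 such probe set, so no choice by level was needed, and 8 of 19752 measured genes were described. They were named with earlier results on age in these same arrays in view, so their changes over age are a description of these genes, and the p-values are not independent evidence of them.

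Total RNA of both dentate gyri was measured on whole-transcript arrays in 5 groups, aged 4, 6, 8, 10 and 12 weeks, with 2 arrays in each. All groups were untreated mice of the strain written C56BL/6J, with the sex given as female, and no genotype or treatment separated them. Levels are log2 values as deposited, so 1 unit is a doubling, and levels of different genes cannot be ranked against each other because each has its own probes. Nothing in the labels ties an array to its own animal or pool, so p-values measure the spread between arrays, which may be technical, and the number of arrays limits the precision.

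Intermediate progenitors are the dividing cells between the radial glia-like stem cells of the subgranular zone and the neuroblasts that become granule neurons. They are defined by the T-box transcription factor Eomes, also called Tbr2, which they carry for a short time before the neuronal program takes over. The dentate gyrus is a brain region in which this sequence goes on after birth, and it is known to slow as mice grow up. The tissue was measured whole, so fewer progenitors, less RNA per progenitor and changes in other cells that carry the genes cannot be told apart.

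The 6 granule cell markers Prox1, C1ql2, Dsp, Tdo2, Calb1 and Lct averaged between 9.1 and 12.6, all above the dim reference, the 95th percentile of 1203 olfactory, vomeronasal and trace amine receptor genes, which averaged 7.01 over the arrays. Correlations between arrays across genes ran from 0.994 to 0.998. Lowest on average was 8 weeks replicate 1, at 0.9952, and 6 weeks replicate 1 held 13.77 for Ttr, the transthyretin gene of the choroid plexus, against 8.87 to 10.15 on the other arrays. Xist stayed between 5.41 and 6.02 while 3 genes of the Y chromosome averaged 9.23 (Uty), 9.06 (Kdm5d) and 8.97 (Eif2s3y), which goes against the sex on the labels. Without both of these arrays the trend called the same 4 of the 8 genes, with changes of −1.38 for Igfbpl1, −1.10 for Eomes, −0.72 for Slc17a6 and −0.69 for Sstr2.

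The 8 genes split in 4 and 4. Eomes, Igfbpl1, Sstr2 and Slc17a6 were lower at the older ages, by 1.62-fold to 2.55-fold over the series, while Mfap4, Btbd17, Gadd45g and Rgs16 had fitted changes between −0.17 and −0.02 that did not pass the test. The trend was the coefficient of age in weeks in limma, multiplied by the 8 weeks covered, with Benjamini-Hochberg adjustment over all 19752 genes and a threshold of 0.05. It called 4 of the 8 genes as lower and 0 as higher, against 0.673% of all genes called lower and 0.147% called higher. The median change was −0.43 for the 8 genes and 0.00 for all genes.

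**Figure D1:**
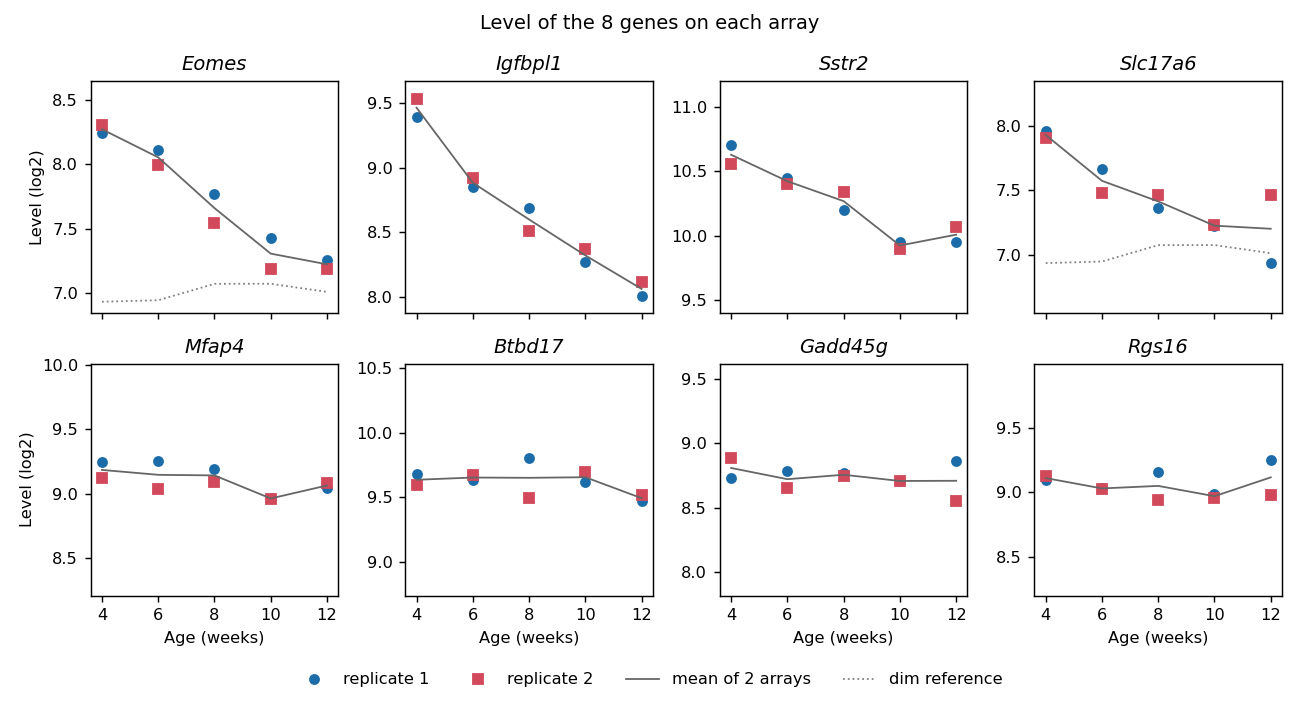
Level (log2) of each of the 8 genes on every array against age in weeks, with circles for replicate 1, squares for replicate 2 and a line through the mean of the 2 arrays; the dotted line is the dim reference, drawn where it falls in the panel, and every panel spans the same number of log2 units. In the top row the arrays of 10 and 12 weeks all lie below those of 4 and 6 weeks, and in the bottom row they overlap.

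Eomes encodes the transcription factor that defines the stage. Its levels were 8.24 and 8.30 at 4 weeks, 8.11 and 8.00 at 6 weeks, 7.77 and 7.55 at 8 weeks, 7.42 and 7.19 at 10 weeks, and 7.26 and 7.19 at 12 weeks. No array of 8 weeks or later reached a level of 4 or 6 weeks, and the arrays of 10 and 12 weeks overlapped. The change over the series was −1.14 ± 0.10 (SE, limma adjusted p = 0.00030). The steps had changes of −0.22 from 4 to 6 weeks, −0.39 from 6 to 8, −0.35 from 8 to 10 and −0.08 from 10 to 12, each with an SE of 0.10. The dim references of the 12-week arrays were 6.98 and 7.04, not far below Eomes.

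Igfbpl1 encodes a secreted protein related to the insulin-like growth factor binding proteins. It had 9.40 and 9.54 at 4 weeks, 8.85 and 8.92 at 6 weeks, 8.69 and 8.51 at 8 weeks, 8.27 and 8.37 at 10 weeks, and 8.01 and 8.11 at 12 weeks. The 5 ages did not overlap at any neighbouring pair, each age lying wholly below the one before. The change over the series was −1.35 ± 0.10 (SE, limma adjusted p = 8.4e-05), which placed Igfbpl1 at rank 2 of 19752 genes by size of fall. Its step from 4 to 6 weeks was −0.58 ± 0.09 (SE), against −0.28, −0.28 and −0.26 in the 3 later steps.

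Sstr2 encodes a Gi-coupled receptor for somatostatin, the peptide of many hippocampal interneurons. Its levels were 10.70 and 10.55 at 4 weeks, 10.44 and 10.40 at 6 weeks, 10.20 and 10.34 at 8 weeks, 9.95 and 9.90 at 10 weeks, and 9.95 and 10.06 at 12 weeks. The arrays of 10 and 12 weeks lay below all others and overlapped each other. The change over the series was −0.69 ± 0.09 (SE, limma adjusted p = 0.0052), with −0.34 ± 0.08 (SE) between 8 and 10 weeks and 0.08 ± 0.08 (SE) between 10 and 12 weeks.

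Slc17a6 encodes the vesicular glutamate transporter VGLUT2, which loads glutamate into synaptic vesicles. It had 7.95 and 7.90 at 4 weeks, 7.66 and 7.48 at 6 weeks, 7.36 and 7.46 at 8 weeks, 7.22 and 7.23 at 10 weeks, and 6.94 and 7.46 at 12 weeks. The 12-week arrays stood 0.53 apart, the widest pair of Slc17a6, and 1 of them lay under its array's dim reference of 6.98. The change was −0.72 ± 0.13 (SE, limma adjusted p = 0.027). Without 12 weeks replicate 1 it was −0.62 and no longer passed (limma adjusted p = 0.11), and without 1 of the 4-week arrays (0.15 or 0.13) or 1 of the 10-week arrays (0.065 or 0.066) the call was lost as well.

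In genome build GRCm38 the 4 genes lie on chromosome 9 at 118478186 to 118486132 (Eomes), chromosome 4 at 45809507 to 45826827 (Igfbpl1), chromosome 11 at 113619327 to 113626028 (Sstr2) and chromosome 7 at 51621830 to 51671126 (Slc17a6). All are protein-coding. The other 4 lie on chromosome 11 at 61485431 to 61488708 (Mfap4) and 114790669 to 114801916 (Btbd17), chromosome 13 at 51846675 to 51848475 (Gadd45g) and chromosome 1 at 153740353 to 153745468 (Rgs16).

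Of the genes with no call, Mfap4 encodes a secreted glycoprotein of elastic microfibrils. It had 9.25 and 9.12 at 4 weeks, 9.26 and 9.03 at 6 weeks, 9.19 and 9.09 at 8 weeks, 8.96 and 8.96 at 10 weeks, and 9.05 and 9.08 at 12 weeks. Both 10-week arrays lay below the others, and the remaining ages overlapped in part. Its change was −0.17 ± 0.08 (SE, limma adjusted p = 0.44).

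Btbd17, a BTB domain gene, had 9.68 and 9.59 at 4 weeks, 9.64 and 9.67 at 6 weeks, 9.80 and 9.50 at 8 weeks, 9.62 and 9.69 at 10 weeks, and 9.47 and 9.52 at 12 weeks. Its highest value came from 8 weeks replicate 1, and the 12-week arrays overlapped those of 8 weeks. The change was −0.11 ± 0.09 (SE, limma adjusted p = 0.69).

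Gadd45g encodes a small stress-inducible protein that arrests growth and activates stress kinases. Its levels were 8.74 and 8.88 at 4 weeks, 8.79 and 8.66 at 6 weeks, 8.77 and 8.75 at 8 weeks, 8.71 and 8.71 at 10 weeks, and 8.87 and 8.56 at 12 weeks. The range of the 12-week pair held the levels of the 6-, 8- and 10-week arrays and 1 of the 4-week arrays. The change was −0.09 ± 0.08 (SE, limma adjusted p = 0.78).

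Rgs16 encodes a GTPase-activating protein that shortens signalling by heterotrimeric G proteins. It had 9.09 and 9.12 at 4 weeks, 9.03 and 9.03 at 6 weeks, 9.15 and 8.94 at 8 weeks, 8.98 and 8.95 at 10 weeks, and 9.25 and 8.98 at 12 weeks. The ages overlapped, with the highest value at 12 weeks. The change was −0.02 ± 0.09 (SE, limma adjusted p = 0.96). The 95% interval of the change reached from 0.20 below to 0.20 above that value, so for Rgs16 a fall as large as that of Sstr2 lies outside it.

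The comparison of 12 with 4 weeks called 3 of the 8 genes as lower in limma, against 0.39% of all genes called lower and 0.127% called higher. At 12 weeks Igfbpl1 averaged 8.06 ± 0.07, against 9.47 ± 0.10 at 4 weeks (SD, n = 2 each), a difference of −1.40 ± 0.09 (SE, limma adjusted p = 0.00030). Eomes averaged 7.22 ± 0.05 at 12 weeks and 8.27 ± 0.04 at 4 weeks (SD, n = 2 each), a difference of −1.05 ± 0.10 (SE, limma adjusted p = 0.0039). Sstr2 averaged 10.01 ± 0.08 at 12 weeks and 10.63 ± 0.10 at 4 weeks (SD, n = 2 each), with −0.62 ± 0.08 (SE, limma adjusted p = 0.016). Slc17a6, at 7.20 ± 0.37 and 7.93 ± 0.04 (SD, n = 2 each), had a difference of −0.73 ± 0.15 that did not pass (limma adjusted p = 0.086), and passed without 12 weeks replicate 2 (−0.99, limma adjusted p = 0.021). The calls of Eomes and Sstr2 were lost without any 1 of the arrays of 4 and 12 weeks, at limma adjusted p between 0.053 and 0.16; that of Igfbpl1 was not lost.

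The arrays of 10 and 12 weeks lay below all those of 4 and 6 weeks for 4 of the 8 genes, Eomes, Igfbpl1, Sstr2 and Slc17a6, against 6.56% of all genes. The age mean was lower at each of the 4 steps for 3 of the 8, Eomes, Igfbpl1 and Slc17a6, against 2.23% of all genes. The F-test over any ages called Igfbpl1, Eomes and Sstr2 (limma adjusted p = 0.0028, 0.016 and 0.043), against 0.167% of all genes. No single step called any of the 8 genes in limma after adjustment (0% of all genes were called at each of the 4 steps). At an unadjusted p under 0.05, the step from 4 to 6 weeks counted 3 of the 8 genes (4.13% of all genes), that from 6 to 8 weeks 2 (6.25%), that from 8 to 10 weeks 3 (4.79%) and that from 10 to 12 weeks 1 (5.59%).

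Whether the falls levelled off was asked with the quadratic contrast of the 5 age means, which is orthogonal to the linear trend. It is given as the depth, at 8 weeks, of the fitted curve below the midpoint of its values at 4 and 12 weeks, so a positive value means a steeper early part. It was 0.19 ± 0.07 for Igfbpl1, 0.18 ± 0.11 for Slc17a6, 0.11 ± 0.06 for Sstr2 and 0.09 ± 0.08 for Eomes (SE). It called 0 of the 8 genes in limma after adjustment over all genes (0% of all genes called; lowest adjusted p = 0.66). At an unadjusted p under 0.05 it counted 1 of the 8, Igfbpl1, beside 7.26% of all genes. The other 4 genes had values between −0.10 for Btbd17 and 0.10 for Rgs16.

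The size of the fall was compared within arrays, as the slope over age of the difference between each gene and Eomes, with an exact two-sided permutation test over all 113400 assignments of the 5 ages to the 10 arrays and adjustment over 7 pairs. Sstr2 fell less than Eomes, with a difference in change of 0.44 ± 0.12 (SE, 95% interval 0.16 to 0.72, exact permutation adjusted p = 0.012). For Igfbpl1 the difference was −0.21 ± 0.15 (SE, 95% interval −0.55 to 0.13, exact permutation adjusted p = 0.19), so neither a fall like that of Eomes nor a steeper one can be told from the other. For Slc17a6 it was 0.42 ± 0.18 (SE, 95% interval −0.01 to 0.84, exact permutation adjusted p = 0.062). Mfap4, Btbd17, Gadd45g and Rgs16 differed from Eomes by 0.97 to 1.12, with exact permutation adjusted p between 0.00012 and 0.00052. The genes were named with results on age known, and these differences restate the same slopes. The p-values of the pairs are therefore a description and not independent evidence. The difference is that of the deposited log2 values, and Eomes lies closer to the dim reference than Sstr2, at 0.70 and 3.24 above it on average.

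**Figure D2:**
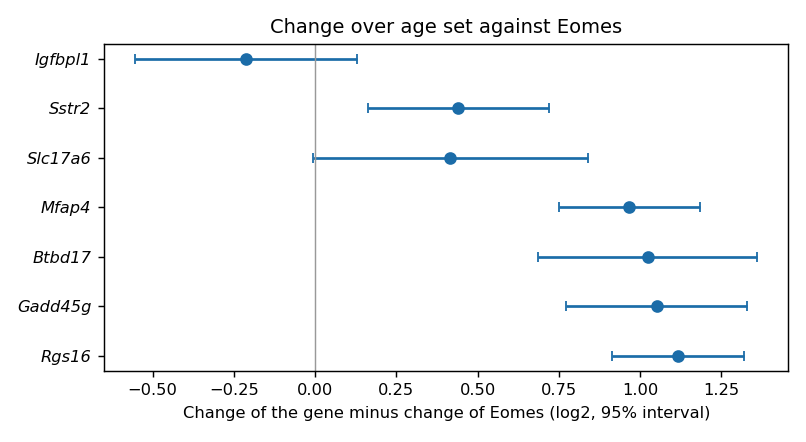
Change of each gene over the series minus the change of Eomes (log2), as points with 95% intervals from the slope of the within-array difference, over 10 arrays. The intervals of Igfbpl1 and Slc17a6 reach across 0 and those of the other 5 genes lie above it.

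Over the 10 arrays the levels of Eomes, Igfbpl1, Sstr2 and Slc17a6 had pairwise Pearson correlations between 0.83 and 0.95, which all share the change with age. When each array was set against the mean of its age, the correlations of the same 6 pairs lay between −0.63 and 0.65, so within an age the 4 genes did not move together across all pairs. Mfap4, Btbd17, Gadd45g and Rgs16 had correlations between −0.05 and 0.66 with each other, and between −0.10 and 0.74 with the first 4 genes. Mfap4 had 0.74 with Sstr2, 0.69 with Eomes, 0.66 with Slc17a6 and 0.58 with Igfbpl1. These exceed its 0.32 with Rgs16, 0.27 with Btbd17 and 0.26 with Gadd45g. With 2 arrays an age these values describe the arrays and carry no test.

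For each gene the 3 genes of most similar pattern were sought by Pearson correlation over the 10 arrays, among 13821 other genes that averaged above the dim reference, leaving out predicted Gm genes and Rik clones. Those of Igfbpl1 were Dpysl3 (0.984) and Dcx (0.981), cytoskeletal genes of immature neurons, and Ttyh3 (0.980). Those of Eomes were Mog (0.981), a myelin surface glycoprotein gene, Dpysl5 (0.974), of growing neurites, and Clec2l (0.973). Without the 4-week arrays the correlations of these 6 genes with their partners were between 0.949 and 0.967. With each array set against the mean of its age, Igfbpl1 had 0.24 with Dpysl3, −0.09 with Dcx and 0.63 with Ttyh3. Eomes then had 0.50 with Mog, 0.14 with Dpysl5 and 0.33 with Clec2l. The correlations over the 10 arrays thus include the shared change with age. Those of Sstr2 were Jarid2 (0.982), a partner of Polycomb repressive complex 2, Nhsl1 (0.974) and Ednrb (0.969), an endothelin receptor. For Slc17a6 they were Epb41l2 (0.949), Ankrd52 (0.947) and Rnf14 (0.944).

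The genes with no call had other partners. Mfap4 was most like Rhoc (0.941), Cav1 (0.936), a caveolae protein of vessel cells, and Phgdh (0.930), of serine synthesis. Btbd17 was most like Prss36 (0.939), Mir93 (0.925) and Pgc (0.922), Gadd45g like Btbd3 (0.942), Pter (0.912) and Atg7 (0.849), and Rgs16 like P2ry6 (0.931), Gpx3 (0.867) and Ecscr (0.864). Prss36, Mir93 and Pgc averaged 7.57, 7.28 and 7.05, near the dim reference average of 7.01. With each array set against the mean of its age, the correlations of all these partners lay between 0.89 and 0.99. They thus include differences between arrays of the same age. Without the 2 arrays that stood apart the correlations of Btbd17, whose highest value is on 1 of them, were 0.923 with Prss36, 0.886 with Mir93 and 0.912 with Pgc. Those of Mfap4 were then 0.947 with Rhoc, 0.915 with Cav1 and 0.921 with Phgdh.

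Promoter windows of 250 bases before to 50 after a transcript's start were read from RefSeq's table for GRCm38.p6, which matched 6 of the 8 genes with 7 windows, 2 of them of Slc17a6. The windows printed are those of the falling genes Eomes, Sstr2 and Slc17a6 and that of Gadd45g, which had no call and held the most marked letters of the 7. Capitals mark E-boxes (CANNTG), the letters that basic helix-loop-helix factors such as Neurog2 and Neurod1 recognise, and CCAAT boxes (CCAAT or, on the other strand, ATTGG). All lie on the plus strand.
Eomes, chr9:118477939-118478238: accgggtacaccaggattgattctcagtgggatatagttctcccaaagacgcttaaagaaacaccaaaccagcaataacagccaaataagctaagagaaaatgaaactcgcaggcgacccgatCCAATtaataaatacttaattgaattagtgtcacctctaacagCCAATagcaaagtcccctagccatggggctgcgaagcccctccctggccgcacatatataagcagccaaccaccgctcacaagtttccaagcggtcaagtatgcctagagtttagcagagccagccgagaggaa
Sstr2, chr11:113619077-113619376: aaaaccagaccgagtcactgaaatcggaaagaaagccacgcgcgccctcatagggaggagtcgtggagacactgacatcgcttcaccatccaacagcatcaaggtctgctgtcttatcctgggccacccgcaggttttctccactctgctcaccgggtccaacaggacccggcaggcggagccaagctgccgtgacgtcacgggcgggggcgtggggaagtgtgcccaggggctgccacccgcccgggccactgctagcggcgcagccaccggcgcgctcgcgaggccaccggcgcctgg
Slc17a6, chr7:51621580-51621879: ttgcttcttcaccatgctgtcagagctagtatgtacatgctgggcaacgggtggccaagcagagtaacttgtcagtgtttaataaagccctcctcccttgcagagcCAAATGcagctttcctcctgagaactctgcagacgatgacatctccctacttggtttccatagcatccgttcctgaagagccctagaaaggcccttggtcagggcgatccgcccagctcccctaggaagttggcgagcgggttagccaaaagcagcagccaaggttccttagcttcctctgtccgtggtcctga
Gadd45g, chr13:51846425-51846724: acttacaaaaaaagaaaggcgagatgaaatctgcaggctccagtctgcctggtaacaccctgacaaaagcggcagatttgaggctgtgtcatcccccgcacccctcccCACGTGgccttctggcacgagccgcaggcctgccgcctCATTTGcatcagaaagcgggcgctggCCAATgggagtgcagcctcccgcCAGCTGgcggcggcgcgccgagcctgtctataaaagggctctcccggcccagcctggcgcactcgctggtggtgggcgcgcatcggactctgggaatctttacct

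The Eomes window held 0 E-boxes and 2 CCAAT boxes, at −127 and −84 from the start. That of Sstr2 held neither and had a GC content of 66.3%. The Slc17a6 window above held 1 E-box, CAAATG, and its other window held 2, with CAGATG at −205 and CATATG at −42. The window of Gadd45g held 3 E-boxes, of which CACGTG lay at −142, CATTTG at −104 and the last, CAGCTG, at −55, with 1 CCAAT box and a TATAAA at −27, which is not in capitals.

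The windows of Btbd17 and Rgs16, which also had no call, held 0 E-boxes and 1 CCAAT box each. In all, 3 of the 7 windows held an E-box and 4 a CCAAT box. Among all 32851 RefSeq windows, 72.3% hold an E-box and 37.4% a CCAAT box on either strand. CAGATG, the E-box form preferred by neurogenic factors, or its complement CATCTG stands in 17.2% of them and in 1 of the 7 windows here. The T-box letters GGTGTGA or its complement TCACACC stands in 4.0% and in 0 of the 7. TTCCCA or TGGGAA, within the site of the Notch effector Rbpj, stands in 25.6% and in 1 of the 7, that of Gadd45g. These are matches of letters in short windows and say nothing of binding.

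Other genes known from intermediate progenitors were read from a list drawn up with earlier results known. Of 19 measured, the trend called 1 as lower, Draxin, and 0 as higher, beside 0.673% and 0.147% of all genes. At an unadjusted p under 0.05 it counted 7 of the 19, beside 11.7% of all genes. Of the 19 changes 13 were below 0, with a median of −0.10, beside 9631 of 19752 and 0.00 over all genes. Whether this list differs from the 8 genes was not tested. Draxin, a secreted axon guidance protein, had 8.72 and 8.80 at 4 weeks, 8.43 and 8.66 at 6 weeks, 8.65 and 8.44 at 8 weeks, 8.35 and 8.31 at 10 weeks, and 7.97 and 8.19 at 12 weeks. It changed by −0.63 ± 0.10 (SE, limma adjusted p = 0.012), and did not pass without 4 weeks replicate 1 (0.057) or replicate 2 (0.063). Between 12 and 4 weeks 2 of the 19 were called lower, beside 0.39% of all genes. They were Draxin (−0.68 ± 0.11) and Sox11, a SoxC factor of young neurons (−0.59 ± 0.09; SE). Both calls were lost without any 1 of the arrays of 4, 10 or 12 weeks, at limma adjusted p of 0.092 to 0.29 for Draxin and 0.061 to 0.24 for Sox11.

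Tac2, which encodes the precursor of neurokinin B, changed by −0.58 ± 0.12 over the series and missed the threshold (limma adjusted p = 0.054). Neurod4, a proneural helix-loop-helix factor, had −0.53 ± 0.19, the corepressor gene Rcor2 −0.31 ± 0.08 and Insm1, a zinc finger factor that promotes the progenitor state, −0.24 ± 0.08 (SE). The highest level of Neurod4, 6.79, lay under the lowest dim reference of any array, 6.88, so its change is one of levels near background. Neurog2, which acts upstream of Eomes, had −0.23 ± 0.12. The Notch ligand genes Dll1 (0.09 ± 0.06) and Dll3 (−0.05 ± 0.06), Mfng, which glycosylates Notch (0.01 ± 0.06), Hes6 (−0.08 ± 0.07) and the cell cycle inhibitor Cdkn1c (0.00 ± 0.09) did not pass either.

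**Figure D3:**
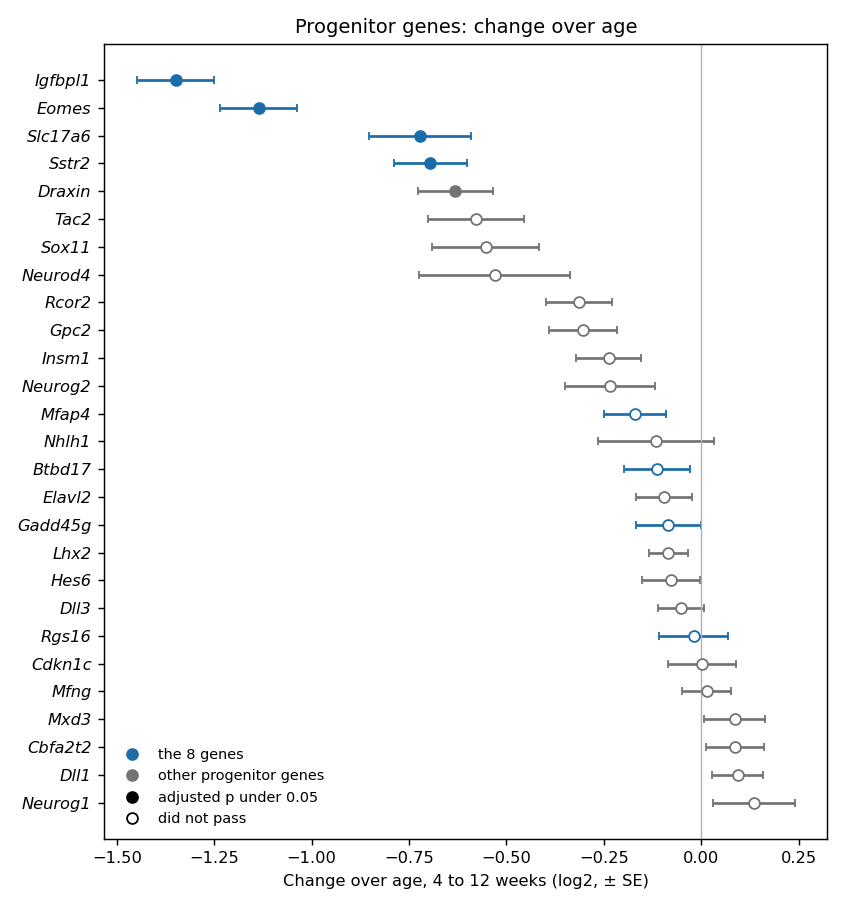
Change over age (log2, with SE) of the 8 genes, in blue, and of 19 other intermediate progenitor genes, in grey, with filled points for a limma adjusted p under 0.05 over all genes. Filled points are Igfbpl1, Eomes, Slc17a6, Sstr2 and Draxin, and the other genes reach from −0.58 for Tac2 to 0.13 for Neurog1.

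Family members of the 8 genes and partners in their pathways gave 0 calls in the trend in limma (38 genes, median −0.04; 5 at an unadjusted p under 0.05, against 11.7% of all genes). The other somatostatin receptor genes had changes of −0.23 ± 0.10 (Sstr1), 0.08 ± 0.09 (Sstr3), −0.10 ± 0.11 (Sstr4) and 0.05 ± 0.10 (Sstr5), and the ligand genes Sst and Cort of −0.07 ± 0.13 and 0.08 ± 0.11 (SE). Slc17a7, the transporter VGLUT1 of granule cells and pyramidal cells, changed by 0.03 ± 0.05, with levels between 13.35 and 13.47 on all arrays, and Slc17a8 by −0.03 ± 0.07. Of the T-box genes Tbr1, which follows Eomes in cortical neurons, had −0.19 ± 0.05, Tbx21 −0.04 ± 0.10, Tbx2 0.16 ± 0.09 and Tbx3 −0.03 ± 0.08.

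Gadd45a (−0.01 ± 0.13) and Gadd45b (0.02 ± 0.10) had small changes like Gadd45g. The IGF-binding protein genes ran from −0.30 ± 0.11 for Igfbp4 to 0.44 ± 0.20 for Igfbp7, and the RGS genes from −0.15 ± 0.08 for Rgs2 to 0.07 ± 0.12 for Rgs13. Between 12 and 4 weeks 1 of the 38 was called, beside 0.39% of all genes called lower and 0.127% called higher. This was Igfbp7, a gene known from vessel cells, called as higher (0.73 ± 0.11, limma adjusted p = 0.032). It had 11.02 and 10.86 at 12 weeks, against 10.25 and 10.17 at 4 weeks, and 10.21 to 10.73 at the ages between. The call was lost without any 1 of the arrays of 4, 10 or 12 weeks (limma adjusted p between 0.086 and 0.27). The Notch effector genes Hes1 (−0.07 ± 0.09), Hes5 (0.04 ± 0.08) and Hey1 (−0.06 ± 0.06) did not pass.

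**Figure D4:**
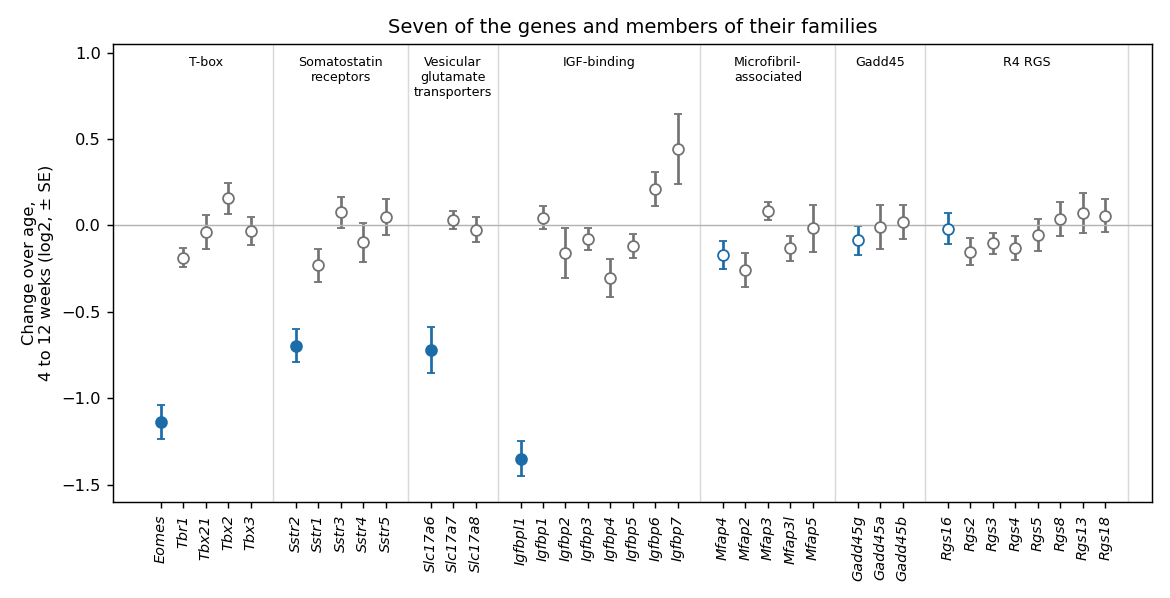
Change over age (log2, with SE) of 7 of the genes, in blue, each beside measured members of its family, in grey, with filled points for a limma adjusted p under 0.05 over all genes. The filled points are Eomes, Sstr2, Slc17a6 and Igfbpl1.

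Stages on either side were read from lists drawn up in the same way. The neuroblast list shares Draxin and Sox11 with the list of other progenitor genes, and Draxin counts as a call in both. Of 13 dividing-cell genes 5 were called lower, with a median change of −0.32, of 16 genes of neuroblasts and immature neurons 6, with a median of −0.44, and of 13 radial glia-like genes 3, with a median of −0.13. Of all genes 0.673% were called lower, with a median of 0.00. The largest change in each list was −0.87 ± 0.12 for Mki67, a nuclear protein of cycling cells, −1.83 ± 0.15 for Cd24a, a surface protein of neuroblasts, and −0.52 ± 0.08 for Nes, the intermediate filament nestin (SE). Whether the 8 genes changed by more than these lists was not tested.

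Several of the genes are also known from other cells. Cajal-Retzius neurons, which persist at the hippocampal fissure beside the dentate gyrus, carry Eomes. Of their 7 markers, Ndnf (−0.48 ± 0.08) and Cacna2d2 (−0.25 ± 0.05) fell. The other 5 had no call, with Reln at −0.16 ± 0.07, Trp73 at −0.09 ± 0.10, Lhx1 at −0.01 ± 0.10, Lhx5 at 0.02 ± 0.11 and Ebf3 at 0.05 ± 0.07 (SE). On average Lhx5 lay only 0.01 and Lhx1 0.37 above the dim reference, where a fall would be hard to see. Trp73 lay 0.90 above it, Ebf3 1.12, Cacna2d2 2.04, Ndnf 2.98 and Reln 3.13. Of the 7 changes 5 were below 0, beside 9631 of 19752 over all genes. The trend called 2 of the 7 lower, beside 0.673% of all genes. At an unadjusted p under 0.05 it counted 3 markers, Reln among them, beside 11.7% of all genes. The mean level over the 7 ran from 8.56 to 8.58 at 4 weeks, 8.51 to 8.56 at 6 weeks, 8.50 to 8.63 at 8 weeks, 8.43 to 8.52 at 10 weeks and 8.39 to 8.47 at 12 weeks, and its part in the fall of Eomes was not tested.

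T and NK cells, some of which carry Eomes, had 0 of 7 markers called, and 4 of the 7 averaged under the dim reference, with list means between 6.48 and 6.84 over the arrays. Thalamic neurons carry Slc17a6. Of 7 thalamic markers 0 were called and 2 had an unadjusted p under 0.05, beside 11.7% of all genes. Their median change was −0.15, beside 0.00 for all genes. The list means were 9.34 to 9.39 at 4 weeks, 9.30 to 9.34 at 6 weeks, 9.28 to 9.36 at 8 weeks, 9.27 to 9.28 at 10 weeks and 9.23 to 9.32 at 12 weeks. Of 3 markers of the subiculum and other Slc17a6 neurons 0 were called, with a median of 0.08. The part of these neurons in the fall of Slc17a6 was not tested. Oligodendrocyte precursors and astrocytes were listed as cells that could carry Btbd17. Of 5 oligodendrocyte precursor markers 2 were called lower, Gpr17 (−0.77 ± 0.09) and Olig2 (−0.50 ± 0.08), beside 0.673% of all genes. Pdgfra (−0.16 ± 0.08), Cspg4 (−0.14 ± 0.07) and Sox10 (−0.09 ± 0.08; SE) did not pass. The list mean ran from 9.30 to 9.32 at 4 weeks, 9.23 to 9.28 at 6 weeks, 9.15 to 9.17 at 8 weeks, 9.08 to 9.10 at 10 weeks and 8.94 to 9.02 at 12 weeks. Of 6 astrocyte markers 0 were called. The part of either cell type in the levels of Btbd17 was not tested.

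Meningeal fibroblasts carry Mfap4. The mean over their 8 markers was between 8.54 and 9.12, highest on the array of 6 weeks replicate 1, where Mfap4 also had its highest value, 9.26, and lowest on that of 10 weeks replicate 1, where Mfap4 was at 8.96. The next highest mean, 9.07, was on 12 weeks replicate 2, where Mfap4 had 9.08, and without the 2 arrays that stood apart the change of Mfap4 was −0.14 (limma adjusted p = 0.44). None of the 8 markers was called over age, and their part in the levels of Mfap4 was not tested. Of the interneuron markers, the cells that supply somatostatin, 0 of 5 were called. No other cells that could carry Sstr2 were listed, and their part in its fall was not tested.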

How the data were processed

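The deposited table holds 1 column for each of 10 arrays and 25254 probe sets. Its values were taken as log2 expression made by the authors. The log base and the background, summarization and normalization steps are not given in the sources used here, and the scale was judged from the values, which ran from 2.50 to 14.77 over the genes. The submitters' processing notes name mm10. The platform annotation named 1 gene for 21496 probe sets, several for 1565 and none for 2193; the probe set of highest mean was kept, giving 19752 genes. Symbols were matched by gene number to a RefSeq table of GRCm38.p6, and 0 changed.

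Ages and replicate numbers came from the sample titles. Two-sided tests were made in limma 3.58.1 (R 4.3.3; eBayes defaults): age as a number for the trend, and age as a factor for the other contrasts. They were also run on simulated data with independent noise for each gene and array, which leaves out effects shared across an array. Pair tests were exact permutations. The genes, lists and tests were chosen with earlier results of these data known. By rule, the 8 genes, the genes of the fixed lists and, for each of the 8, the 3 genes most like it could be named. Alternatives are given below. Replicate numbers were not used to pair arrays in the main tests. Of 10 pairs of ages 3 had correlated deviations over 0.1 (range −0.34 to 0.16). The lowest was that of 6 and 8 weeks, the ages of the arrays that stood apart. With no reference for unpaired arrays, these correlations cannot decide whether arrays of the same replicate number belong together. The replicate block is among the alternatives.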

Additional observations from a re-analysis of the deposited data

How the results depend on the processing

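The trend called 4 of the 8 genes in the replicate block and in 9 other alternatives, and 3 or 4 without 1 array at a time. Without both 4-week arrays it called 1, Igfbpl1, with Eomes at −1.14 (limma adjusted p = 0.060), Sstr2 at −0.63 (0.30) and Slc17a6 at −0.52 (0.57); fewer arrays and a shorter span were then tested. Between 12 and 4 weeks the count was 3 or 4, and 1 to 3 without 1 array at a time; the F-test gave 2 or 3, and 1 to 3. With trended and robust variances the steps gave 1 call, Igfbpl1 from 4 to 6 weeks (−0.58, limma adjusted p = 0.038). Curvature gave 0 calls in every alternative run. The pair tests against Eomes called 5 or 6 of 7, with Slc17a6 added in the replicate block (exact permutation adjusted p = 0.034) and without 12 weeks replicate 1 (0.016).

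Among the other progenitor genes and relatives the trend called 1, but 3 without the dimmest 30% of genes, 3 with trended and robust variances, 3 on log2 of age and 4 with array weights, 0 without both 4-week or both 12-week arrays, and 0 to 2 without 1 array at a time. Between 12 and 4 weeks these lists had 2 called lower, 1 in the replicate block, and 0 to 3 without 1 array at a time. The settings of variance, weights, log2 of age and left-out ages for these lists, all settings of the F-test, and the likeness without the 2 arrays that stood apart, were added after seeing the data. The cause of these shifts was not tested. Over all genes the trend called 162 genes, 35 to 279 without 1 array at a time, 7 without both 4-week arrays, 51 without both 12-week arrays, 225 without the 2 arrays that stood apart, 222 on log2 of age, 337 without the dimmest genes, 363 with trended and robust variances and 417 with array weights. In the trend the changes of Btbd17 and Rgs16 took either sign among the alternatives and those of Mfap4 and Gadd45g stayed below 0, with none of these 4 called; between 12 and 4 weeks Gadd45g ran from −0.25 to 0.06. The 2 arrays an age and a level near the dim reference limit Eomes and Slc17a6.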
